A study of Oryza sativa Japonica Group with 6 samples.

Results

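The aquaporin family of rice was described across 6 Affymetrix rice arrays, 2 for each of 3 groups. Members were all probe sets whose single gene carried a name of the form PIP, TIP, NIP or SIP followed by 2 digits, or the name Lsi1, in the gene annotation. The rule found 31 of the 57381 probe sets on the array, for 25 of the 28 rice aquaporin genes that the gene table names in this way. In all, 17905 genes had a probe set of their own. They comprised 13 probe sets of 10 PIP genes, 11 of 8 TIP genes, 5 of 5 NIP genes and 2 of 2 SIP genes. No probe set carried NIP1-2, NIP3-3 or PIP2-3 alone, and 2 further probe sets that are shared with another gene (PIP2-1 with PIP2-5, and TIP3-1 with a gene without a name) were left out by the rule.

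Aquaporins are channel proteins that let water, and in some members small uncharged solutes, cross membranes. Plasma membrane intrinsic proteins (PIPs) carry water across the cell surface, with PIP1 members generally needing PIP2 partners to reach it, while tonoplast intrinsic proteins (TIPs) sit in the vacuole membrane. Nodulin 26-like intrinsic proteins (NIPs) include the channels for silicic and boric acid, and small basic intrinsic proteins (SIPs) are found in internal membranes. In rice, Lsi1 (NIP2-1) takes silicon up into roots, together with the efflux transporter Lsi2, and Lsi6 (NIP2-2) acts in shoots.

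The groups were a line overexpressing OsSKIPa (S58S), a line in which OsSKIPa was suppressed (S59R), and the wild-type cultivar Zhonghua11. All plants were 1 month old, and seedlings had been moved to hydroponic culture at 10 days. The transgenic plants had been selected on hygromycin (overexpression) or G418 (suppression), so that line, selection drug and OsSKIPa level cannot be told apart. The sample titles call the transgenic samples biological repeats, numbered 1 and 2, or 1 and 3 in the suppression line. The wild-type samples are titled Control 1 and Control 2. The labels do not give the promoter of the constructs or how many transformants a line stands for. Further repeats named in the design text were not analysed here.

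Each value is a signal intensity on a linear scale. The arrays had been brought to a common level, with a trimmed mean of about 500.06 in each and medians between 58.6 and 66.2. Because probe sets bind with different strength, differences were tested between arrays and not between genes. Ranks by brightness and summed marker signals given below depend on that strength too. By their IDs, 8 of the aquaporin probe sets may also bind other transcripts. They are the only ones of TIP2-2, TIP3-1, TIP4-2 and Lsi6, the brighter one of PIP2-2, and 1 each of PIP2-1, TIP1-1 and TIP2-1. The labels call the tissue both shoots and whole plants. Of 13 root markers, 7 had a probe set of their own and each was measured above 0 in every array, as were the 7 green shoot markers with a probe set. A signal above 0 does not show that a transcript is present. YSL15 read 18.1 and 43.9 under overexpression, 50.6 in suppression replicate 3 and 45.4 in wild-type replicate 2, all below the array medians. SCR1 read 52 in wild-type replicate 1, also below the median. OsSKIPa itself was not checked, because no probe set was named for it in the tables used. In these bulk samples, fewer cells of a type and less RNA per cell cannot be told apart. The ratio of 3' to 5' actin signal reached 3.43 and 3.73 under overexpression, and lay between 2.75 and 2.89 in the other 4 arrays.

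Most aquaporin transcripts were bright and steady. Of the 31 probe sets, 26, for 20 genes, lay above the array median in all 6 arrays, and these were the ones that entered the test. In 11 of them the signal was over 100 times the array median in every array. The highest array exceeded the lowest by 1.09-fold to 5.40-fold over the 26, with a median of 1.34-fold. TIP1-2 was at the upper end of that range. Between groups, the median absolute log2 fold change of members was 0.11, 0.20 and 0.18, against 0.15, 0.21 and 0.24 over all tested probe sets. These were for overexpression against wild type, suppression against wild type, and overexpression against suppression. TIP1-1 read between 22861 and 25757 on its first probe set, and PIP1-2 between 17146 and 21226. The signal of every probe set in every array is shown in the plot by subfamily.

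**Figure D1:**
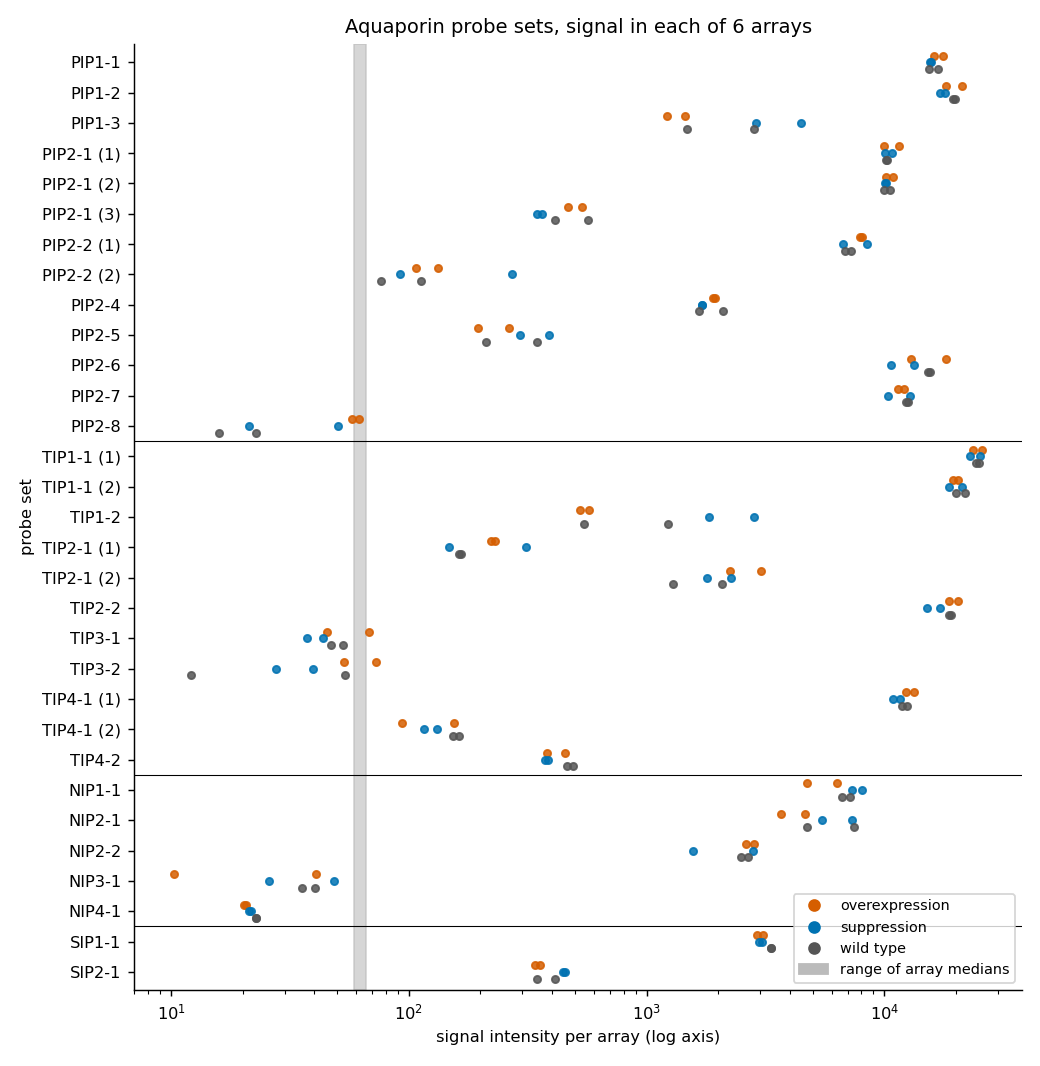
Signal intensity (log axis) of the 31 aquaporin probe sets in each of the 6 arrays, coloured by group and divided by lines into PIP, TIP, NIP and SIP; the grey band spans the array medians, 58.6 to 66.2. Most probe sets have 6 closely packed points far above the band, whereas TIP1-2 and PIP1-3 spread with the suppression arrays on the high side, and 5 probe sets lie near or below the band.

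Each transgenic line was compared with the wild type, and the lines were compared with each other. The comparisons are of lines, because the level of OsSKIPa was not checked. The vacuolar water channel gene TIP1-2 and the plasma membrane water channel gene PIP1-3 were the members that differed between the lines past the threshold, and both were higher in the suppression line. TIP1-2 read 523 and 574 under overexpression, 2823 and 1824 under suppression and 1224 and 544 in wild-type plants. Both suppression arrays were thus above the other 4, while the second wild-type array fell between the overexpression arrays and the first did not.

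The mean of TIP1-2 was 548 ± 36.3 under overexpression, 2323 ± 707 under suppression and 884 ± 481 in wild-type plants (SD over 2 arrays). The suppression mean was 4.24 times the overexpression mean. On the log2 scale, overexpression minus suppression was -2.04 ± 0.35 (SE), with a 95% interval from -2.84 to -1.25 (limma adjusted p = 0.0155). Against the wild type, the suppression line read 1.47 ± 0.35 higher, which did not pass (adjusted p = 0.0739), and the overexpression line read -0.57 ± 0.35 (adjusted p = 0.78).

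PIP1-3, which the gene table also lists as RWC3, read 1215 and 1454 under overexpression, 4442 and 2895 under suppression and 2834 and 1485 in wild-type plants. Here the 3 groups did not overlap and followed the order overexpression, wild type, suppression, although neighbouring groups lay close, with 1454 next to 1485 and 2834 next to 2895. Its mean was 1334 ± 169, 3668 ± 1094 and 2159.7 ± 954 for overexpression, suppression and wild-type plants (SD over 2 arrays). Overexpression minus suppression was -1.43 ± 0.30, with an interval from -2.11 to -0.75 (adjusted p = 0.0302). Against the wild type PIP1-3 read -0.63 in the overexpression line (adjusted p = 0.732) and 0.80 in the suppression line (adjusted p = 0.213), neither past the threshold.

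The wild-type arrays themselves stood apart for both genes. Replicate 1 was 2.25 times replicate 2 for TIP1-2, a gap matched or exceeded by 3.74% of all tested probe sets, and 1.91 times for PIP1-3 (5.79%). The estimate of TIP1-2 in the suppression line against the wild type was 2.05 without wild-type replicate 1, then past the threshold (adjusted p = 0.0274), and 0.89 without replicate 2 (adjusted p = 0.229). For PIP1-3 the corresponding values were 1.27 and 0.34 (adjusted p = 0.0945 and 0.616), and in the overexpression line TIP1-2 read 0.01 without wild-type replicate 1 and -1.16 without replicate 2. Between the lines, both calls were lost without overexpression replicate 1 (adjusted p = 0.0725 for TIP1-2 and 0.13 for PIP1-3), without overexpression replicate 2 (0.0775 and 0.103) or without suppression replicate 1 (0.0826 and 0.14), with estimates between -2.36 and -1.73 for TIP1-2 and between -1.74 and -1.12 for PIP1-3 over all fits that left out 1 array. Neither call held without the trend of the variance on the mean (0.117 and 0.152), and PIP1-3 did not pass without the filter on dim probe sets (0.0507).

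Root markers were set beside these genes. The summed signal of the 6 root markers other than Lsi1 was 1509 and 1738 under overexpression, 3689 and 1864 under suppression and 2605 and 1883 in wild-type plants. The first suppression and first wild-type arrays were thus the highest for this sum, and the overexpression arrays the lowest. Lsi2 and NAAT1, the brightest of the 6, carried that order. The other 4 root markers, set apart after their values were seen, summed to 498 and 695 under overexpression, 678 and 463 under suppression and 539 and 556 in wild-type plants, with the second overexpression array highest. Among these, the iron transporter gene IRT1 read 211 and 296 under overexpression against 87.9 and 103 under suppression, opposite to TIP1-2 and PIP1-3. YSL15, the dimmest, read 18.1 and 43.9 under overexpression, 170 and 50.6 under suppression and 70 and 45.4 in wild-type plants. As in the full sum, its overexpression arrays were lowest and its first suppression array highest. SHR1 and SCR1 gave small negative estimates for overexpression minus suppression (-0.19 and -0.26, limma adjusted p = 0.749 and 0.695). Over the 7 root markers with Lsi1, the median log2 fold change was -0.61 for overexpression against suppression, and only IRT1 had a positive estimate. None of the 6 root markers was at 0, which does not show that each was present. For the 7 green shoot markers the sum of the brightest probe set of each gene ran from 92265 to 105444 over all arrays, but the list's median log2 fold change was -0.37 for suppression against wild type and 0.44 for overexpression against suppression. Signal for 18S ribosomal RNA stood at 3674 and 3885 under suppression, below the 4949.6 to 5451 of the remaining arrays, and the actin ratio given above was highest in the overexpression arrays. The part of root transcripts, shoot transcripts and RNA quality in the values of TIP1-2 and PIP1-3 was not tested.

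**Figure D2:**
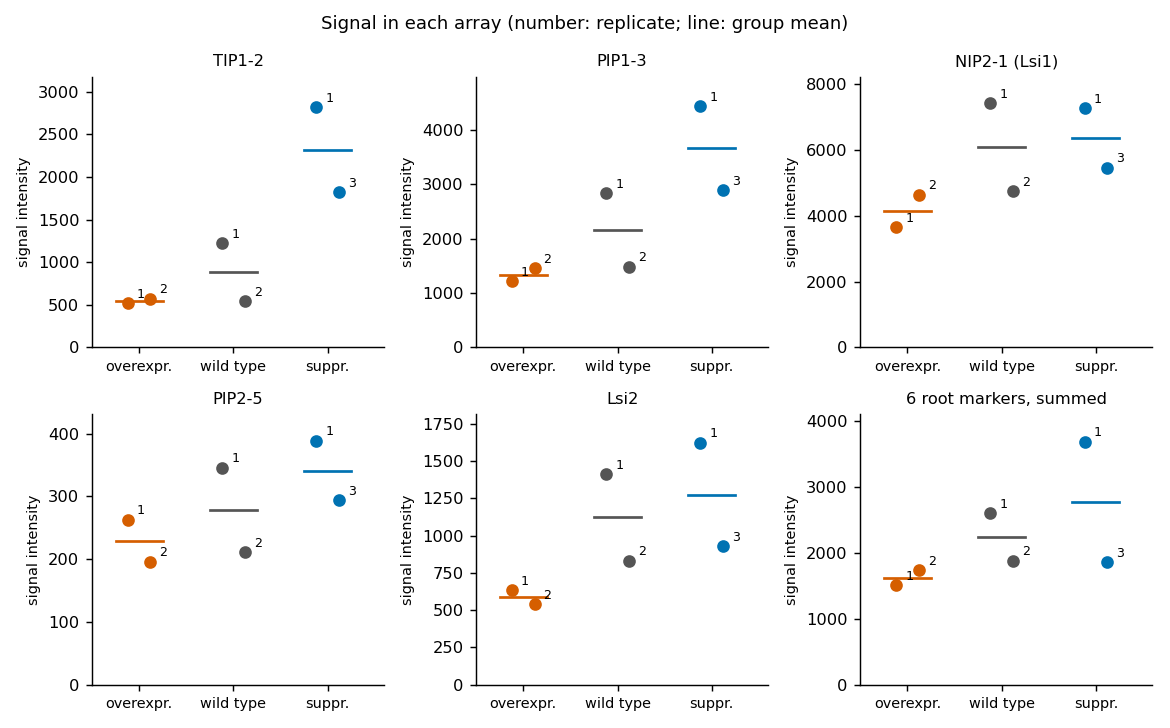
Signal intensity (linear axis from 0) of TIP1-2, PIP1-3, Lsi1 (NIP2-1), PIP2-5, the silicon efflux transporter gene Lsi2 and the sum of 6 root markers other than Lsi1 (Lsi2 among them); each point is 1 array marked with its replicate number, and lines are group means. TIP1-2 averages 548 in the overexpression line and 2323 in the suppression line, and in each panel the first wild-type and suppression arrays lie above their partners. The panels are a selection, and this order did not hold for all other genes: NIP1-1 read 6630 and 7168 in the wild type, and IRT1 87.9 and 103 under suppression.

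Among the PIP genes, PIP1-1 and PIP1-2, the other members of the PIP1 class, passed in no comparison. PIP1-1 read 17612 and 16237 under overexpression, 15670.0 and 15629 under suppression and 15356 and 16864 in wild-type plants, and its overexpression and suppression arrays differed by 0.11 on the log2 scale, with an interval from -0.07 to 0.29. PIP1-2 read 21226 and 18094, 17146 and 18031, and 19439 and 19783 in the same order of groups. Its overexpression minus suppression difference was 0.16, from -0.04 to 0.36, and the estimate for PIP1-3 in the same comparison lies outside both intervals.

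PIP2-1, PIP2-4 and PIP2-5 lie next to each other in the gene table with no other protein-coding gene between them. The 2 brighter probe sets of PIP2-1 read between 9994 and 11486 in all arrays. Its remaining and much dimmer probe set read 469 and 537 under overexpression, 362 and 345 under suppression and 566 and 411 in wild-type plants, with suppression minus wild type at -0.45 ± 0.19 (unadjusted p = 0.042, adjusted p = 0.261). The brighter ones gave 0.03 and -0.02 in that comparison, so the probe sets of this gene did not give the same estimate. PIP2-4 read between 1655 and 2103. PIP2-5 read 263 and 196 in the overexpression line, 389 and 294 in the suppression line and 346 and 211 in the wild type, with overexpression minus suppression at -0.57 ± 0.28 (adjusted p = 0.268).

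PIP2-6 was lower in both suppression arrays than in the wild type, at 10693 and 13288 against 15224 and 15533, but the overexpression arrays, at 18201 and 12949, spanned the wild type. Its difference of -0.37 ± 0.16 between the suppression line and the wild type did not pass (adjusted p = 0.276). PIP2-7 read between 10398 and 12797 in all 6 arrays. PIP2-2 had a bright probe set, which read 8049 and 7929 under overexpression, 6692 and 8486 under suppression and 7217 and 6807 in wild-type plants, so that the overexpression arrays were above the wild type and the suppression arrays spanned both. It also had a dim one, read between 76.3 and 270.3, whose suppression arrays at 92.2 and 270.3 differed more than those of any other tested member. The bright one gave 0.19 ± 0.11 in the overexpression line against the wild type (adjusted p = 0.78).

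In the TIP subfamily, TIP1-1, a close relative of TIP1-2, did not pass in any comparison. Its first probe set read 25757 and 23664 under overexpression, 25127 and 22861 under suppression and 24388 and 25009 in wild-type plants. The estimate for overexpression minus suppression was 0.04, with an interval from -0.13 to 0.22, and 0.01 on the second probe set. That one read 20476 and 19476 under overexpression, 21127 and 18690 under suppression and 19975 and 21924 in wild-type plants. The groups overlapped in every comparison for both probe sets.

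TIP2-1 gave the smallest unadjusted p among members in the overexpression line. Its brighter probe set read 2246 and 3037 there against 1290 and 2068 in the wild type, with 1786 and 2274 in the suppression line. The overexpression minus wild type estimate was 0.68 ± 0.24 (unadjusted p = 0.0205, adjusted p = 0.654), and the dimmer probe set gave 0.45 (adjusted p = 0.814). By its ID the brighter one may also bind other transcripts, and neither passed the threshold.

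TIP2-2 read 20353 and 18768 under overexpression, 15153 and 17137 under suppression and 18790.2 and 19080 in wild-type plants. Both suppression arrays were below the other 4, by a small margin: suppression minus wild type was -0.23 ± 0.08 (adjusted p = 0.199) and overexpression minus suppression 0.28 ± 0.08 (adjusted p = 0.087). TIP4-1 was read between 10909 and 13364 on its bright probe set. TIP4-2 read 382 and 456, 374 and 385, and 462 and 491 in the overexpression, suppression and wild-type arrays, so that all 4 transgenic arrays were below the wild type. Its estimate for the suppression line was -0.33 ± 0.15 (adjusted p = 0.321).

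The NIP subfamily held the silicon channels. Lsi1 read 3662 and 4647 under overexpression, 7278 and 5457 under suppression and 7419 and 4744 in wild-type plants. The overexpression arrays were below the other 4, yet 4647 and 4744 nearly touched. Lsi1 gave -0.52 ± 0.22 for overexpression minus wild type (unadjusted p = 0.0448, adjusted p = 0.696) and -0.61 ± 0.22 for overexpression minus suppression (adjusted p = 0.144), neither past the threshold.

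The efflux transporter gene Lsi2, which works with Lsi1 in roots, read 633 and 540.0 in the overexpression line, 1623 and 927 in the suppression line, and 1411 and 832 in the wild type. As for Lsi1, both overexpression arrays were below the other 4. Overexpression minus suppression was -1.07 ± 0.30 (adjusted p = 0.0758) and overexpression minus wild type -0.89 ± 0.30 (adjusted p = 0.644). Lsi6, the channel that acts in shoots, read 2612 and 2821, 1562 and 2806, and 2495 and 2668 in the 3 groups, and only suppression replicate 1 stood apart. Without suppression replicate 3 it passed the threshold in the suppression line against the wild type (-0.72, adjusted p = 0.0486), and between the lines (0.80, adjusted p = 0.0228), both on the remaining suppression array alone. Lsi3, the remaining name of the silicon list, was not analysed here.

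NIP1-1 read 6322 and 4727 under overexpression, 8035 and 7329.7 under suppression and 6630 and 7168 in wild-type plants. The groups did not overlap in any comparison. Overexpression minus suppression was -0.49 ± 0.13 (unadjusted p = 0.00639, adjusted p = 0.0705), and overexpression minus wild type -0.33 ± 0.13 (adjusted p = 0.691). Without overexpression replicate 1 the first of these was -0.70 and passed (adjusted p = 0.0289).

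No SIP gene passed the threshold. SIP1-1 read 3073 and 2909.8 under overexpression, 3064 and 2983 under suppression and 3321 and 3334 in wild-type plants. All 4 transgenic arrays were below both wild-type arrays, with estimates of -0.15 ± 0.09 (adjusted p = 0.769) in the overexpression and -0.14 ± 0.09 (adjusted p = 0.466) in the suppression line. These comparisons share the wild-type arrays. SIP2-1 read 356 and 339, 453 and 445, and 346 and 413 in the 3 groups, with overexpression minus suppression at -0.37 ± 0.16 (adjusted p = 0.209).

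Counted over the family, limma called 0 of the 26 aquaporin probe sets in the comparison of overexpression with wild type, where 0.0495% of all 30322 tested probe sets did, and 3 had an unadjusted p under 0.05, or 11.5% against 7.12% of all. For suppression against wild type limma likewise called 0, against 2.3% of all, with 5 (19.2%) under an unadjusted 0.05 against 17.8% of all. Between the lines 2 of 26 passed, or 7.69%, close to the 6.56% of all tested probe sets, and 9 (34.6%) had an unadjusted p under 0.05 against 23.1%. Both that passed were lower in the overexpression line. Of all tested probe sets, 2.93% passed and were lower there, and 3.63% passed and were higher. With both directions counted together, the family's share of calls between the lines was therefore near the background. By direction, 7.69% of members passed as lower and 0% as higher. Against the wild type, 0 calls among 26 members cannot tell the family from shares of 0.0495% and 2.3%.

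**Figure D3:**
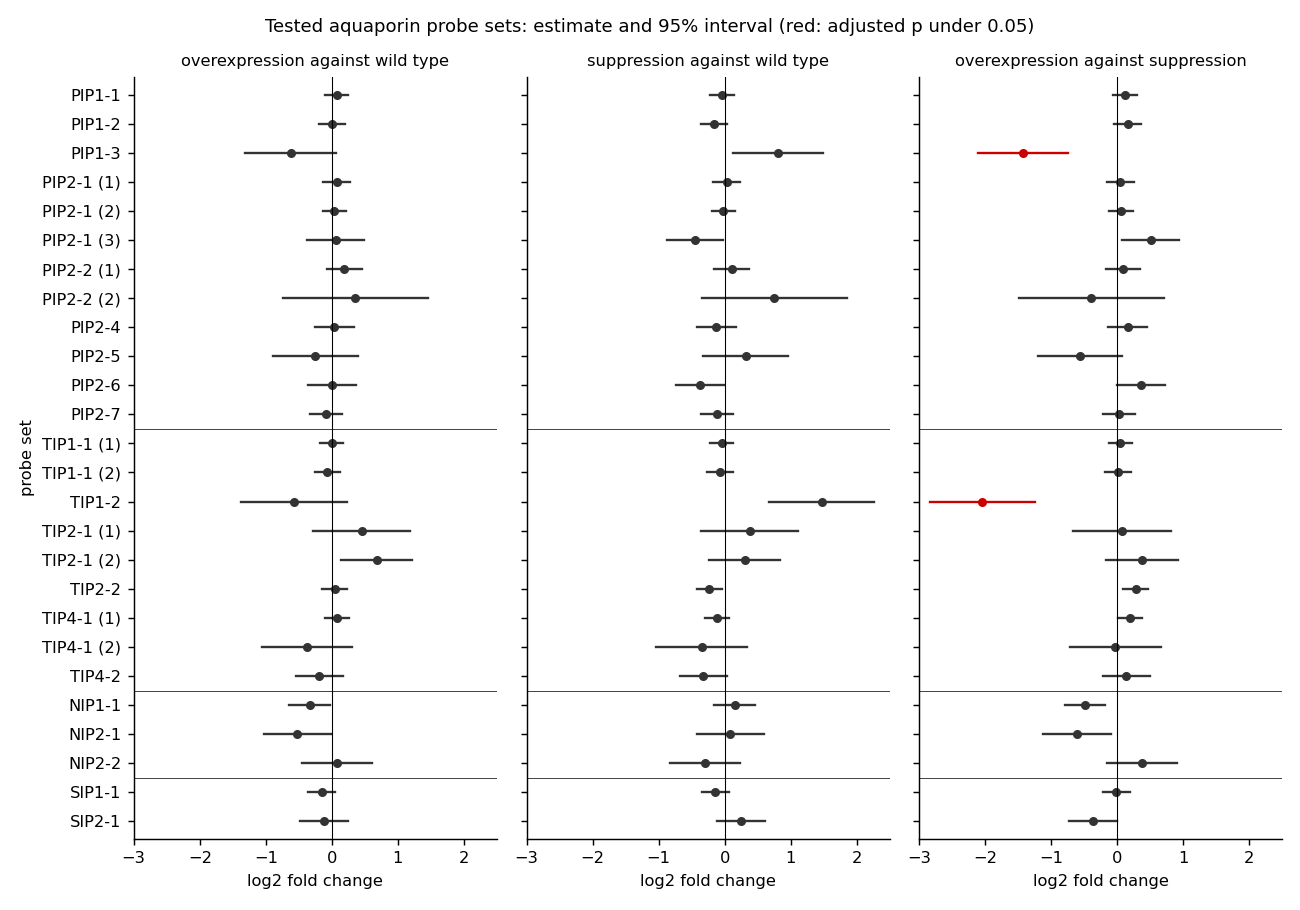
Log2 fold change (point) and 95% interval (line) of the 26 tested aquaporin probe sets in the 3 comparisons, divided by lines into PIP, TIP, NIP and SIP; red marks an adjusted p under 0.05. TIP1-2 (-2.04) and PIP1-3 (-1.43) are the red ones, both between the transgenic lines, and the bright members PIP1-1, PIP1-2 and TIP1-1 have short intervals around 0.

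The groups did not overlap for 9 of 26 members in the overexpression line against the wild type, 3 of them higher and 6 lower. Of all tested probe sets 38.1% did not overlap, 18.9% higher and 19.2% lower. In the suppression line this held for 12, 4 higher and 8 lower, against 48.8% of all, 23.3% higher and 25.5% lower. Between the lines it held for 12, 6 in each direction, against 53.5% of all, 27.2% higher and 26.3% lower in the overexpression line. Differences of over 1.5-fold were estimated for 2, 3 and 3 of the 26 members in the same order, or 7.69%, 11.5% and 11.5%, against 8.67%, 14.1% and 16.8% of all tested probe sets. The 95% interval lay inside 1.5-fold in either direction for 16, 13 and 13 members, and for the others a change of that size was not bounded by these arrays.

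By subfamily, the median log2 fold change in the overexpression line against the wild type was 0.04 over 12 PIP probe sets, -0.00049 over 9 TIP, -0.33 over 3 NIP and -0.14 over 2 SIP, where the median of all tested probe sets was -0.0053. In the suppression line the medians were -0.03, -0.07, 0.09 and 0.05, beside -0.02 over all. Between the lines, overexpression minus suppression, they were 0.07, 0.07, -0.49 and -0.19, beside 0.01 over all. PIP and TIP medians thus lay near that of all tested probe sets in each comparison. Between the lines, the extreme members of these subfamilies, PIP1-3 and TIP1-2, lay far from the subfamily medians. With 3 and 2 probe sets, the NIP and SIP medians are those of NIP1-1 or Lsi1 and the mean of the SIP pair.

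**Figure D4:**
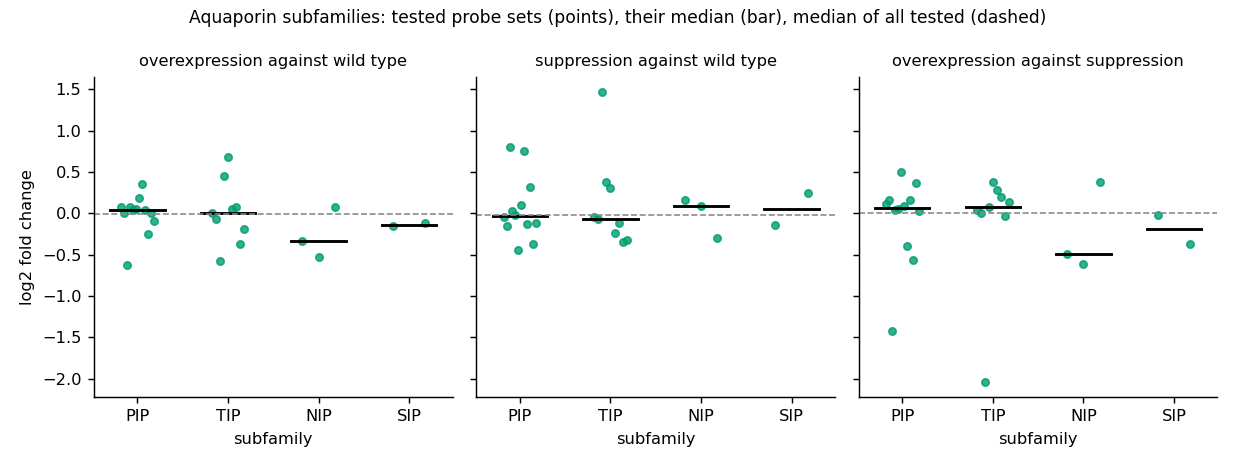
Log2 fold change of each tested aquaporin probe set (points) by subfamily in the 3 comparisons, with the subfamily median (bar) and the median of all tested probe sets (dashed line). PIP and TIP bars lie near the dashed line, between -0.07 and 0.07, while single points reach -2.04 (TIP1-2) and -1.43 (PIP1-3) between the lines.

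The 5 members that did not enter the test were dim. TIP3-1 and TIP3-2, whose relatives are known from seeds, read between 37.3 and 68.0 and between 12.1 and 72.9. NIP3-1, a boric acid channel that the files list as DTE1, read between 10.3 and 48.4, and NIP4-1 between 20.3 and 22.8. PIP2-8 read 61.6 and 57.8 under overexpression, 50.5 and 21.2 under suppression and 15.9 and 22.7 in wild-type plants, all below the median of their arrays, so no fold change is given for it. TIP3-1 and TIP3-2 were above the array median in 1 array each, and the others in 0.

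Genes of the response to water deficit, a setting in which aquaporins are often studied, were set beside the family. The 17 names on the list gave 12 genes with a tested probe set, 17 probe sets in all. None passed by limma in either line against the wild type. Between the lines, the dehydrin-type gene RAB21 was higher in the overexpression line on both of its probe sets (1.89 and 1.11, adjusted p = 0.0429 and 0.0451). RAB16C, of the same gene class (-1.55, adjusted p = 0.036), DHN1 on 1 of 3 tested probe sets (-0.61, adjusted p = 0.0193) and BZIP23, a regulator of abscisic acid responses (-0.90, adjusted p = 0.0167), were lower. The list's median was -0.05, beside 0.01 over all tested probe sets. In it, 2 probe sets were called higher and 3 lower, where 3.63% of all tested probe sets were called higher and 2.93% lower. Of the root markers, IRT1 was higher in the overexpression than in the suppression line (1.36, adjusted p = 0.0199), against the direction of Lsi1, Lsi2, TIP1-2 and PIP1-3, and 0 of 7 root markers were lower past the threshold. Of the 16 tested probe sets of green shoot markers, 4 were higher in the overexpression than in the suppression line: those of GLK1 (1.22, adjusted p = 0.0169), a regulator of chloroplast development, 2 of its relative GLK2 (0.63 and 1.34) and 1 of RCA, rubisco activase (0.37, adjusted p = 0.0266). In the suppression line against the wild type 1 of GLK2 was lower (-1.42, adjusted p = 0.0409), where 1.35% of all were called lower. The list of plasma membrane proton pumps had 1 tested gene, listed as a7 and not checked to be a pump, at 0.12 (adjusted p = 0.412), and the tonoplast pump names matched no gene.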

How the data were processed

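RNA isolated with TRIzol (6 µg a sample) was turned into biotin-labelled cRNA, per the labels' protocols. The authors deposited 1 linear signal intensity for each probe set and array; the summarising software was not given in the sources used. Means trimmed by 2% at either end were equal, as read from the values, and this scaling was kept. Log2 was taken after adding 3.3, the 10th percentile, which understates changes of dim probe sets. Apart from 123 control probe sets, those above the array's own median in 2 or more of the 6 arrays entered the test (30322 tested, 26936 not). A single limma 3.58.1 model (R 4.3.3; lmFit, eBayes with a variance trend) covered all 3 groups, with 3 residual and 5.20 prior degrees of freedom. P-values were two-sided and Benjamini-Hochberg adjusted across every probe set tested (threshold 0.05), and the procedure was tested on simulated data. An exact permutation test of 2 arrays against 2 cannot go below p = 0.333.

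Names came from the platform's probe table and a RefSeq table (assembly ASM3414082v1), which also gave neighbouring genes. No sequences were used. The members and gene lists were chosen with earlier results of these data known. Values in every array are given for members past the threshold, the 6 smallest unadjusted p per comparison, the 2 brightest of each subfamily and Lsi1; other members given in full were added after their values were seen. Alternatives were other scalings, pseudocounts, filters, variance models, samples in the fit, a replicate block and leaving out each array.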

Additional observations from a re-analysis of the deposited data

Results flagged for a closer look

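For TIP1-2 and PIP1-3 the differences of the lines from the wild type were unequal, by the test of overexpression against suppression, in which the wild type cancels. The effect of the overexpression line minus that of the suppression line was -2.04 for TIP1-2 and -1.43 for PIP1-3 on the log2 scale. The overexpression arrays were below the suppression arrays in all pairs of arrays for both genes, as for 26.3% of all tested probe sets. This adds no support, because both genes were picked by the same comparison. Of the 7 root markers, only IRT1 was higher in the overexpression than in the suppression line (1.36, limma adjusted p = 0.0199). The others had negative estimates: Lsi1 -0.61, Lsi2 -1.07, SHR1 -0.19, SCR1 -0.26, YSL15 -1.61 and NAAT1 -0.89, none past the threshold. The part of root transcripts in the values of TIP1-2 and PIP1-3 was not tested.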

How the results depend on the processing

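Over 15 alternatives, the 20 member results examined gave 300 values, of which 283 kept their direction and their side of the threshold, 11 lost a call, 3 gained one and 3 changed sign. All 11 losses were of TIP1-2 and PIP1-3 between the lines, the only results with a call to lose. TIP1-2 stayed called in 10 of the 15 alternatives and PIP1-3 in 9. With 1 array left out, the number of aquaporin probe sets called was 0 in each fit of overexpression against wild type, 0 to 1 for suppression against wild type and 0 to 3 for overexpression against suppression, and the family median was -0.05 to 0.02, -0.08 to -0.03 and 0.02 to 0.10. A fit with 2 arrays in one group and 1 in another assumes that the lone array varies like the others. Between the lines, the count of 2 became 1 with no filter (PIP1-3 at adjusted p = 0.0507, with more probe sets tested), 0 without the variance trend and 0 with the replicate block. With arrays scaled to a common median, TIP1-2 was called in the suppression line against the wild type (1.55, adjusted p = 0.0122), a count of 1, and the family median there was 0.033. The cause was not tested. Sign changes were those of Lsi1 in the suppression line without suppression replicate 1 (-0.12) and without wild-type replicate 2 (-0.24), which read 0.41 when wild-type replicate 1 was left out instead, and of TIP1-2 in the overexpression line without wild-type replicate 1 (0.00986), against -1.16 when replicate 2 was left out instead.

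Same-numbered arrays of the overexpression line and the wild type did not deviate together (r = -0.015 across tested probe sets). The labels do not state that the numbers pair the samples. A single difference between arrays per group cannot settle it. With the replicate block, overexpression minus suppression was -2.10 for TIP1-2 (adjusted p = 0.0835) and -1.57 for PIP1-3 (adjusted p = 0.112), and 95 and 306 of all tested probe sets were called in the suppression line and between the lines, in place of 698 and 1990. Over all tested probe sets, higher and lower calls in the suppression line were 290 and 408, and 410 and 322 with arrays scaled to a common median. The same scaling turned 12 and 3 into 22 and 15 in the overexpression line, and 1102 and 888 into 771 and 924 between the lines. Without the variance trend 0, 26 and 70 were called in the overexpression line, the suppression line and between the lines. With no filter the last 2 of these were 425 and 1255, and requiring all 6 arrays above their median left 3 in the overexpression line. With 1 array left out the counts were 5 to 36, 171 to 583 and 463 to 1410. With 2 arrays a group, dim probe sets such as the second of PIP2-2 had wide intervals. With the brightest probe set per gene, the TIP median between the lines was 0.16.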
